A study of Rattus norvegicus with 28 samples.

Results

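The experiment set rats given both ketanserin and psilocybin against rats given neither, with RNA taken from prefrontal cortex 24 h after a pair of intraperitoneal injections. The animals were adult males of the outbred Sprague-Dawley strain. The 4 rats described here had ketanserin at 1 mg/kg in a Tween-80 solution and then psilocybin at 1 mg/kg in saline, and their reference was 4 rats given the Tween-80 solution and then saline. Membership was taken from the treatment labels alone, which gave 8 of the 28 libraries of the series, described there as biological replicates. Where a difference from a single drug was tested, 4 rats given the Tween-80 solution and psilocybin at 1 mg/kg, and 4 rats given ketanserin at 1 mg/kg and saline, were used as well. All animals were 8 weeks old on arrival, and no transgene or mutation is given. Replicate numbers only name libraries.

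Psilocybin is a prodrug that the body converts to psilocin, an agonist of several serotonin receptors. Its best known effects run through the serotonin 2A receptor, which is coupled to Gq proteins and is abundant in pyramidal neurons of the deep layers of the cortex. Ketanserin is an antagonist of that receptor and also binds the serotonin 2C receptor, alpha-1 adrenergic receptors and the histamine H1 receptor. Neuronal activity and growth factor signalling switch on immediate early genes such as Fos, Egr1 and Arc within minutes to hours, and feedback phosphatases such as Dusp6 follow. The comparison asks which transcripts differ a day later in animals that had both the agonist and its blocker.

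The 8 libraries held 13346016 to 16691980 counted reads, of which 6.98 to 10.3% fell on the mitochondrial genome. Every pair of the 8 differed by more than counting noise, at a chi-square of 8.54 to 77 for each gene. Slc17a7, the vesicular glutamate transporter of cortical pyramidal neurons, was abundant at 721 to 961 FPKM. The receptors Drd1 and Adora2a, abundant in striatum, lay at 1.4 to 3.57 and 2.01 to 4.05 FPKM. Vehicle replicate 2 lay at the edge of the 8 libraries, with the highest mitochondrial share, the lowest scaling factor of 0.924 and the highest score on the first principal component, 50.5. Next were vehicle replicate 4 in mitochondrial share, at 9.71%, and replicate 3 of the rats given both drugs in that score, at 31.4. Many medians of gene lists that moved with vehicle replicate 2 or another library are given with and without it, though not every such change is listed.

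With edgeR, 0 of 17404 genes tested (0%) passed an adjusted p under 0.05 between rats given both drugs and vehicle rats. At an unadjusted p under 0.05 there were 106 genes higher (0.609%) and 121 genes lower (0.695%) in rats given both drugs, 227 in all (1.3%). In 116 genes (0.667%) all 4 libraries of rats given both drugs lay above all 4 vehicle libraries, and in 113 (0.649%) all lay below. DESeq2 called 1 gene, and edgeR fitted to these 8 libraries alone called 2. The 227 genes at the unadjusted threshold were 354 without replicate 3 of the rats given both drugs and 362 without vehicle replicate 3. Levels are given as reads scaled to the size of the library (CPM). Over 15477 genes averaging at least 1 CPM, the 95% interval reached 0.44 log2 units to either side at the median. Smaller differences could not be told from 0 for a typical gene. The interval is not adjusted for the number of genes, so passing the adjusted test took a larger difference than that. The median log2 fold change over all genes was -0.01, and 8160 genes (46.9%) had a positive one. Apart from LOC100911575, all genes named below had an adjusted p of 0.9998 against vehicle (edgeR), so their values are differences that did not pass the test.

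**Figure D1:**
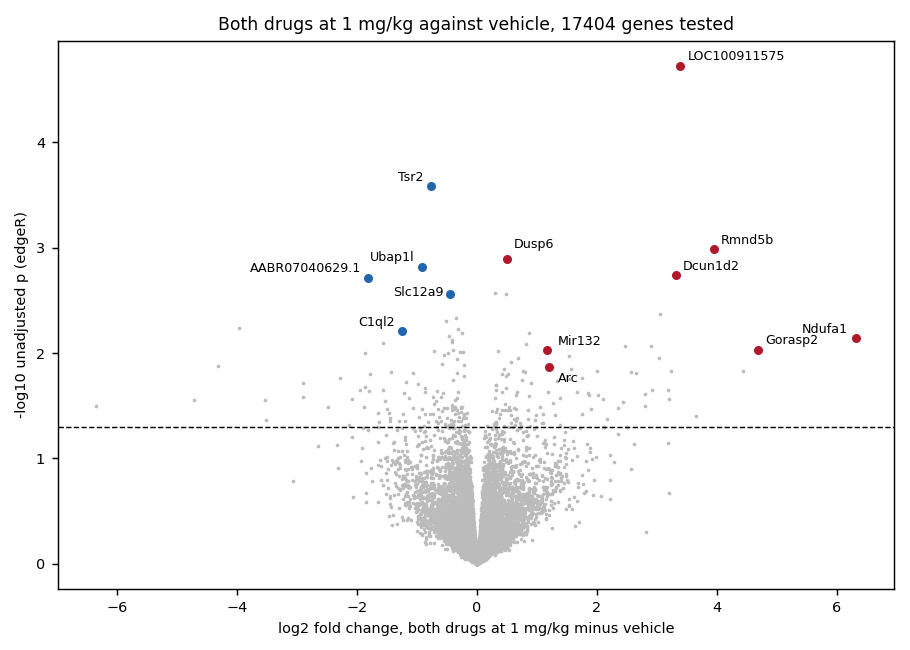
Each point is 1 of 17404 genes, with the log2 fold change (both drugs at 1 mg/kg minus vehicle) on the x axis and -log10 of the unadjusted edgeR p on the y axis, and the dashed line marks an unadjusted p of 0.05. LOC100911575 has the lowest p, at a log2 fold change of 3.39, and the genes at the right edge, Ndufa1 and Gorasp2, lie well below it on the y axis.

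Immediate early genes stood higher in rats given both drugs than in vehicle rats, although no member passed the adjusted test. Among 24 tested immediate early transcription factor genes, 17 had a positive log2 fold change and the median was 0.15, beside -0.01 over all genes. Of these 24, 5 were higher at an unadjusted p under 0.05 and 0 were lower, beside 0.609% and 0.695% of all genes. The count of 5 was 2 without vehicle replicate 1 or 2, and 3 without vehicle replicate 4 or without replicate 3 or 4 of the rats given both drugs, while the median stayed between 0.12 and 0.21 with any of the 8 libraries left out. Among 18 effector genes, which code for proteins other than transcription factors, 11 had a positive log2 fold change, the median was 0.11, and 2 were higher at that threshold. That count was 1 without vehicle replicate 1 or 4 or without replicate 1 of the rats given both drugs, and 4 without replicate 2 of the rats given both drugs.

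Junb, an AP-1 subunit, had 82.5, 98.6, 111 and 79.2 CPM in rats given both drugs, against 36.8, 64.0, 82.4 and 48.2 CPM in vehicle rats. The ranges met only through vehicle replicate 3, which exceeded the lowest library of rats given both drugs. The fold change was 1.6 (log2 0.68 ± 0.25 SE). After psilocybin alone Junb lay at 67.4 to 73.8 CPM, below every library of rats given both drugs, and after ketanserin alone at 74.9 to 113 CPM. Over all genes, 1.62% had all 4 libraries of rats given both drugs above all 4 of psilocybin alone. Of the 24 transcription factor genes 14 were higher than after psilocybin alone, with a median log2 fold change of 0.03.

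Nr4a1, an orphan nuclear receptor, had 65.8, 83.9, 98.8 and 109 CPM in rats given both drugs and 51.7, 61.3, 73.0 and 63.8 CPM in vehicle rats. Vehicle replicate 3 alone reached into the range of rats given both drugs, and the log2 fold change was 0.52 ± 0.20 (SE).

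Egr1, a zinc finger factor induced by synaptic activity, had 153, 164, 185 and 170 CPM in rats given both drugs, against 138, 132, 150 and 119 CPM in vehicle rats. Its ranges did not overlap, and the log2 fold change was 0.32 ± 0.15 (SE). Its relative Egr2 was far lower, at 3.73, 2.80, 5.23 and 5.31 CPM in rats given both drugs and 2.03, 0.66, 2.79 and 1.24 CPM in vehicle rats. These ranges did not overlap either, though 2.80 and 2.79 CPM lay side by side, and the log2 fold change was 1.34 ± 0.53 (SE).

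Arc, which codes for a protein that acts at active synapses in the trafficking of AMPA receptors, had 62.5, 128, 148 and 112 CPM in rats given both drugs, against 25, 46.7, 89.3 and 35.9 CPM in vehicle rats. The fold change was 2.28 (log2 1.19 ± 0.45 SE) and the groups overlapped in 1 library of each. Ptgs2, the inducible cyclooxygenase, had 23.9, 18.8, 17.5 and 22.1 CPM in rats given both drugs and 16.4, 11.8, 19.8 and 11.1 CPM in vehicle rats, a log2 fold change of 0.48 ± 0.19 (SE). Per1, a clock gene that also responds to stimulation, averaged 83.3 ± 17.0 CPM in rats given both drugs and 67.7 ± 3.99 CPM in vehicle rats (SD, n = 4 each). Bdnf, the neurotrophin gene, averaged 24.99 ± 3.27 CPM in rats given both drugs and 22.5 ± 4.17 CPM in vehicle rats (SD, n = 4 each), with overlapping ranges.

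Fos and Npas4 are added here after their values were seen. Fos, the AP-1 partner of Jun proteins, had 10.2, 16.6, 18.7 and 12.3 CPM in rats given both drugs and 7.44, 5.35, 13.8 and 4.53 CPM in vehicle rats, a log2 fold change of 0.88 ± 0.43 (SE). Npas4, a factor driven by calcium influx, had 20.1, 37.0, 30.6 and 10.5 CPM in rats given both drugs and 11.7, 7.53, 18.7 and 11.6 CPM in vehicle rats, a log2 fold change of 0.98 ± 0.48 (SE). Vehicle replicate 3 was the highest vehicle library for each of the 8 genes Junb, Nr4a1, Egr1, Egr2, Fos, Npas4, Arc and Ptgs2. The 8 genes were picked for low p in this comparison or after their values were seen, so their shared direction is no test. Of the 24 transcription factor genes 7 had a negative log2 fold change, down to -0.66.

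**Figure D2:**
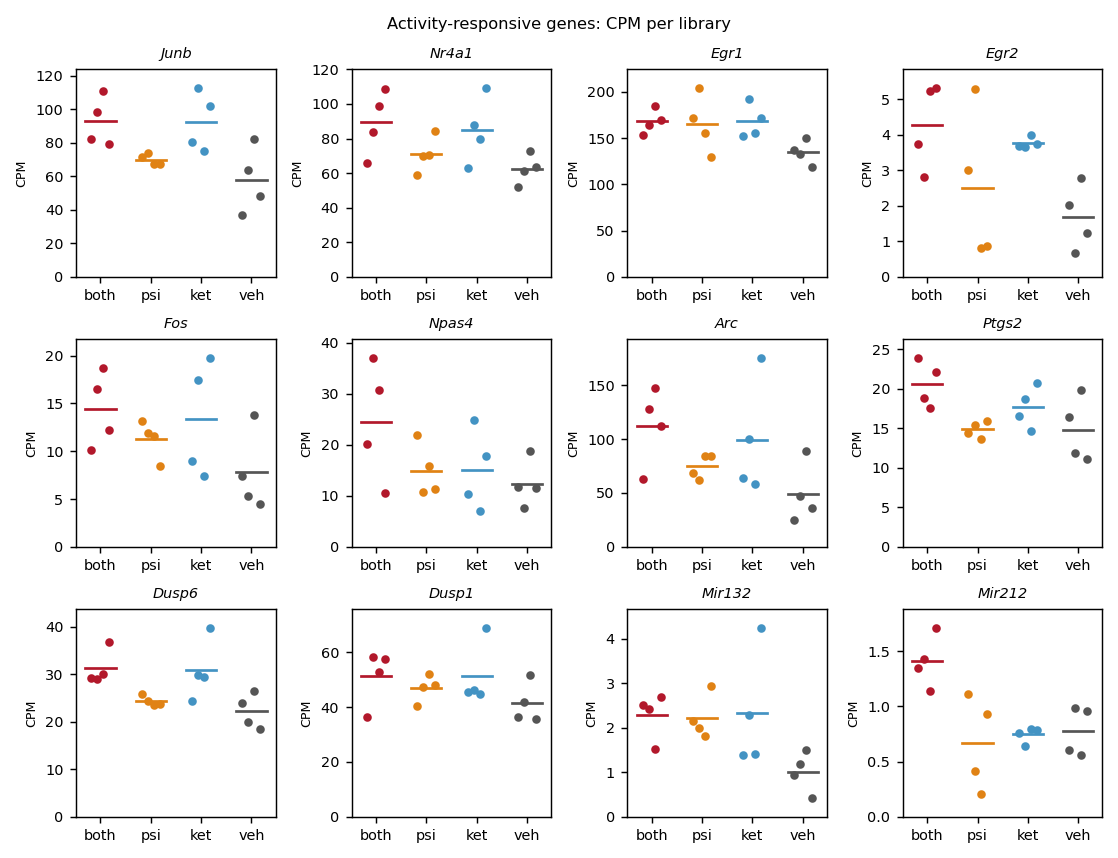
CPM per library (y axis, linear from 0) of 12 activity-responsive genes in rats given both drugs (both), psilocybin alone (psi), ketanserin alone (ket), each at 1 mg/kg, and vehicle (veh), with points for the 4 libraries of a group and bars for their mean. Egr1, Egr2, Dusp6, Mir132 and Mir212 show no overlap between rats given both drugs and vehicle rats, and Junb, Ptgs2, Dusp6 and Mir212 show none between rats given both drugs and psilocybin alone. Over all genes, rats given both drugs lay wholly above vehicle in 0.667% and wholly above psilocybin alone in 1.62%.

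The activity lists were set beside each drug given alone as well. As a score per library, the mean log2(CPM + 0.5) of the immediate early transcription factor genes minus its vehicle mean, values were 0.15 to 0.31 in rats given both drugs, 0.12 to 0.24 after psilocybin alone, 0.17 to 0.41 after ketanserin alone and -0.07 to 0.14 in vehicle rats. The same score of the effector genes was 0.13 to 0.27 in rats given both drugs, 0.12 to 0.16 after psilocybin alone, 0.06 to 0.31 after ketanserin alone and -0.06 to 0.06 in vehicle rats. These comparisons share the 4 vehicle libraries. Against them, the median log2 fold change of the transcription factor genes was 0.20 after psilocybin alone and 0.19 after ketanserin alone. These had 20 and 19 of 24 genes positive. At 3 mg/kg of each drug the median was 0.16 with 19 positive, beside 0.15 with 17 positive at 1 mg/kg of each. Rats given both drugs overlapped with both groups given a single drug on either score.

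The promoters of the 4 transcription factor genes described first are shown because these genes lay higher together. The sequences are the 250 bases before the RefSeq start of each gene on the GRCr8 build, read 5′ to 3′ on the strand of the gene. Capitals mark 3 motifs that are known to carry activity responses, searched on both strands: the core of the cAMP response element (TGACG, or CGTCA on the other strand, which every full element TGACGTCA contains), the CArG box bound by serum response factor, and an Egr site (GCGGGGGCG, or CGCCCCCGC on the other strand). Junb lies on the plus strand at chr19:40080876-40081125, Nr4a1 on the plus strand at chr7:134259888-134260137, Egr1 on the plus strand at chr18:26736828-26737077 and Egr2 on the minus strand at chr20:21054442-21054691.
Junb: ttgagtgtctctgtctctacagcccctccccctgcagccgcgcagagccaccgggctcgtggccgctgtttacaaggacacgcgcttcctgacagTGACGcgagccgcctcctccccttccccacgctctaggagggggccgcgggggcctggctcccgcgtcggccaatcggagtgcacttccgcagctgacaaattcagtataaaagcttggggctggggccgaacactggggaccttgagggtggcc
Nr4a1: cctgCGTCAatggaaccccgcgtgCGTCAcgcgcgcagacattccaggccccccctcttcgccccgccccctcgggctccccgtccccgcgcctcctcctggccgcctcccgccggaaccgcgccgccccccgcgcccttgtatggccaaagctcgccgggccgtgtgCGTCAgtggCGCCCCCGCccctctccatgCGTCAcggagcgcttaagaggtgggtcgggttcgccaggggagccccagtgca
Egr1: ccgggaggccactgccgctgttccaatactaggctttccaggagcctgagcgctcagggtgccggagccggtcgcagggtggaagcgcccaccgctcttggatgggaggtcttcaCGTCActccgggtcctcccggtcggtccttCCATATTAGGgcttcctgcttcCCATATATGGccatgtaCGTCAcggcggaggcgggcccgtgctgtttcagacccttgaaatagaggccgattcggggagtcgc
Egr2: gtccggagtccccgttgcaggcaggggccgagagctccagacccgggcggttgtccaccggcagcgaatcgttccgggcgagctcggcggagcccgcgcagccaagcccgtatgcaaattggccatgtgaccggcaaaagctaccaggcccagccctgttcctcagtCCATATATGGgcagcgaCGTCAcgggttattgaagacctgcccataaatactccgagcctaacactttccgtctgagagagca

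Nr4a1 held the core at 4 places and an Egr site at 1, Egr1 held 2 cores and 2 CArG boxes, Egr2 held 1 core and 1 CArG box, and Junb held 1 core. A window was at hand for 16 of the 24 transcription factor genes. Of these 16, 10 (62.5%) held the core, against 18.2% of all 33469 windows of that length, 4 (25%) held a CArG box, against 1.5%, and 3 (18.8%) held the Egr site, against 2.45%. The full element TGACGTCA was in 2 of the 16 (12.5%), against 1.59% of all windows. The windows of Dusp6 and Ptgs2 held none of these letters. A match describes the sequence and is no measured binding site. The list was made of known immediate early genes, so these shares describe the list whatever the rats were given and are no test of this comparison.

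Dusp6, the cytosolic phosphatase that switches off ERK kinases, was the member of the activity lists with the lowest p. The gene lies at chr7:41475163-41479392 on rn6. It had 29.2, 29.0, 30.0 and 36.7 CPM in rats given both drugs, against 23.9, 19.9, 26.5 and 18.4 CPM in vehicle rats. All 4 libraries of rats given both drugs lay above all 4 vehicle libraries, with a fold change of 1.41 (log2 0.49 ± 0.14 SE). It lay at 23.5 to 25.8 CPM after psilocybin alone, below every rat given both drugs, as did 1.62% of all genes. After ketanserin alone it lay at 24.3 to 39.7 CPM. Across 13 ERK phosphatase and Sprouty genes 7 had a positive log2 fold change, with a median of 0.08 that was -0.01 without vehicle replicate 2 or without replicate 4 of the rats given both drugs, and no member but Dusp6 was past an unadjusted p of 0.05. Dusp1, the nuclear phosphatase of the same family, averaged 51.3 ± 10.2 CPM in rats given both drugs and 41.4 ± 7.36 CPM in vehicle rats (SD, n = 4 each). Socs2, a cytokine-induced inhibitor of growth hormone signalling, averaged 15.5 ± 2.77 CPM in rats given both drugs and 11.1 ± 1.32 CPM in vehicle rats (SD, n = 4 each), and Rap2c, a small GTPase of the Ras family, averaged 39.6 ± 3.65 CPM in rats given both drugs and 32.2 ± 3.05 CPM in vehicle rats (SD, n = 4 each).

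The records of Mir132 and Mir212, microRNAs made from 1 primary transcript that CREB induces in active neurons, both lay higher in rats given both drugs. Their mature 3p strands share a seed, the stretch from base 2 to base 8 that pairs with targets, and so are shown together. Both come from RefSeq on GRCr8, on the plus strand, at chr10:60522091-60522112 for miR-132-3p and chr10:60521811-60521832 for miR-212-3p, with the seed in capitals.
rno-miR-132-3p: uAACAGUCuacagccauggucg
rno-miR-212-3p: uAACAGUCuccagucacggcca
The Mir132 record, at chr10:62014995-62015095 on rn6, had 2.51, 2.41, 1.52 and 2.68 CPM in rats given both drugs, against 0.947, 1.19, 1.49 and 0.412 CPM in vehicle rats. All 4 libraries of rats given both drugs lay above all 4 vehicle libraries, by the margin of 1.52 against 1.49 CPM at the closest, and the log2 fold change was 1.17 ± 0.42 (SE). Mir212, looked up after the values of its neighbour were seen, had 1.35, 1.43, 1.14 and 1.71 CPM in rats given both drugs and 0.609, 0.99, 0.558 and 0.96 CPM in vehicle rats, again with no overlap, at 3 to 30 reads in any library of the series, a log2 fold change of 0.85 ± 0.40 (SE). Libraries of poly-A RNA do not capture mature microRNAs, so these records count other RNA from the locus and the mature strands were not measured. After 1 drug alone Mir132 overlapped with rats given both drugs, at 1.82 to 2.93 CPM after psilocybin and 1.39 to 4.24 CPM after ketanserin. Mir212 lay at 0.202 to 1.11 CPM after psilocybin and 0.645 to 0.798 CPM after ketanserin, below every library of rats given both drugs. The margin was 1.11 against 1.14 CPM at the closest. Over all genes, rats given both drugs lay wholly above psilocybin alone in 1.62% and wholly above ketanserin alone in 1.57%.

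The gene with the lowest p of the comparison was LOC100911575, annotated as a copy of the acidic ribosomal protein P2 of the large subunit, at chr1:214428526-214430515 on rn6. It had 37.9, 53.5, 4.17 and 35.1 CPM in rats given both drugs, against 2.10, 3.30, 2.98 and 4.12 CPM in vehicle rats. In rats given both drugs 3 libraries were far above vehicle, and the fourth, replicate 3, lay just above the highest vehicle library. The fold change was 10.5 (log2 3.39 ± 0.64 SE) with an adjusted p of 0.325 (edgeR). DESeq2 gave it an adjusted p of 0.000516, and edgeR gave 0.0104 without replicate 3 of the rats given both drugs. After ketanserin alone it had 26.6 to 51.3 CPM and after psilocybin alone 2.10 to 11.7 CPM, so 7 of the 8 libraries of these rats that had ketanserin lay above all of those without it.

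The table holds 5 records of this ribosomal protein, and near-identical copies can share or lose reads in counting. The record of Rplp2 itself had 0 to 9 reads in any library of the series. Summed over the 5 records, levels were 67.2, 82.9, 43.4 and 59.1 CPM in rats given both drugs, against 26.4, 43.7, 31.4 and 35.6 CPM in vehicle rats, and the ranges overlapped by 1 library of each group. The record LOC498555 of the family averaged 27.4 ± 5.74 CPM in rats given both drugs and 28.4 ± 6.20 CPM in vehicle rats (SD, n = 4 each).

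Rmnd5b, Ndufa1, Dcun1d2 and Gorasp2 were near 0 in some libraries and well counted in others. Rmnd5b, which belongs to a ubiquitin ligase complex, had 5.26, 12.2, 5.01 and 5.48 CPM in rats given both drugs, against 0.338, 0.396, 0.434 and 0.617 CPM in vehicle rats. Every vehicle library was low for Rmnd5b, while psilocybin alone gave 5.45 to 12.8 CPM and ketanserin alone 1.07 to 14 CPM. Ndufa1, a subunit of mitochondrial complex I, had 42.4, 44.6, 18.3 and 24.8 CPM in rats given both drugs and 0.135, 0.66, 0.186 and 0.617 CPM in vehicle rats. After a single drug it was above 1 CPM in 1 library of 4, at 54.3 CPM after psilocybin and 15 CPM after ketanserin. The fit of these 8 libraries alone called both, with a log2 fold change of 3.95 and an adjusted p of 0.0181 for Rmnd5b and 6.33 and 0.00472 for Ndufa1 (edgeR).

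Dcun1d2, which takes part in the neddylation of cullin ligases, had 4.22, 1.17, 3.64 and 4.34 CPM in rats given both drugs and 0.0676, 0.99, 0.248 and 0 CPM in vehicle rats. Gorasp2, a Golgi stacking protein, had 0.49, 13.8, 20.7 and 14.9 CPM in rats given both drugs and 0.338, 0.33, 0.744 and 0.48 CPM in vehicle rats at the record with the lower p. A second record carries the same symbol and averaged 24.3 ± 4.24 CPM in rats given both drugs and 23.3 ± 5.15 CPM in vehicle rats (SD, n = 4 each), and the sums of both records, 28.6 to 48.3 CPM in rats given both drugs and 19.5 to 29.5 CPM in vehicle rats, overlapped. Nhp2, within 2000 bases of Rmnd5b on the opposite strand, was also near 0 in most libraries, with 0.342 to 1.04 CPM in rats given both drugs and 52.5 CPM in vehicle replicate 2 beside 0.372 to 0.744 CPM in the other vehicle rats. Whether counting used strand is not stated in the labels or headers, so reads of such neighbours cannot be told apart.

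**Figure D3:**
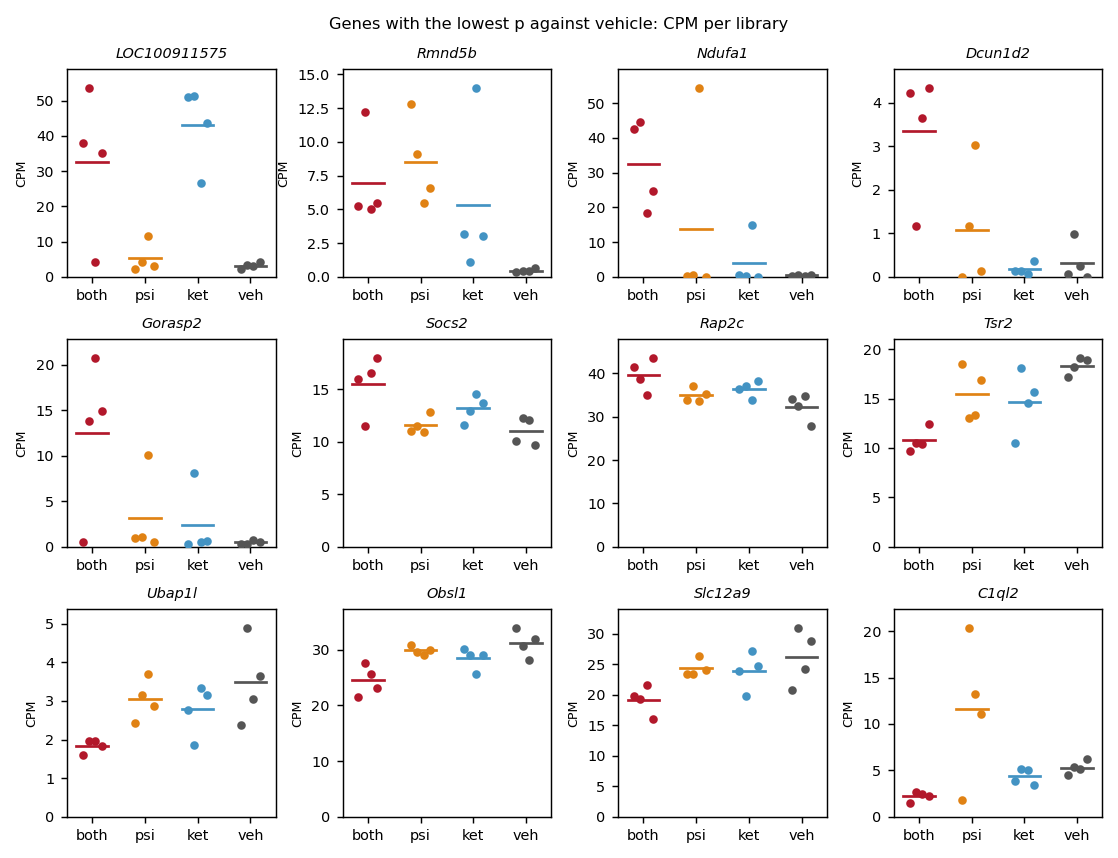
CPM per library (y axis, linear from 0) of 12 genes with low p against vehicle, in rats given both drugs (both), psilocybin alone (psi), ketanserin alone (ket), each at 1 mg/kg, and vehicle (veh), with points for the 4 libraries of a group and bars for their mean. Ndufa1 and Gorasp2 are near 0 in most libraries given 1 drug, with Ndufa1 at 54.3 CPM in 1 library of psilocybin alone, whereas Tsr2 and Ubap1l are lower in all 4 rats given both drugs than in all 4 vehicle rats.

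Among genes lower in rats given both drugs, Tsr2, a factor of pre-ribosomal RNA processing at chrX:20144432-20232639 on rn6, had the lowest p. It had 9.73, 10.5, 10.4 and 12.4 CPM in rats given both drugs, against 17.2, 18.2, 19.1 and 18.9 CPM in vehicle rats. The groups were apart by more than their spread and the log2 fold change was -0.77 ± 0.18 (SE), with -1.14 to -0.40 as the 95% interval. It lay at 13.1 to 18.5 CPM after psilocybin alone and 10.5 to 18.1 CPM after ketanserin alone. Under the 15 settings run, its log2 fold change lay between -0.84 and -0.72. The record overlaps AABR07037412.2 on the opposite strand.

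Ubap1l, a gene related to a subunit of the endosomal sorting machinery, had 1.59, 1.96, 1.97 and 1.83 CPM in rats given both drugs and 2.37, 4.88, 3.04 and 3.64 CPM in vehicle rats. Obsl1, a cytoskeletal adaptor, averaged 24.5 ± 2.66 CPM in rats given both drugs and 31.1 ± 2.44 CPM in vehicle rats (SD, n = 4 each). Notum, a secreted inhibitor of Wnt proteins, averaged 5.85 ± 1.28 CPM in rats given both drugs and 8.36 ± 0.93 CPM in vehicle rats (SD, n = 4 each). For Ubap1l, Obsl1 and Notum no library of rats given both drugs reached the vehicle range.

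Slc12a9, a member of the cation-chloride cotransporter family, Abcc10, an export pump, Ezr, which links membrane proteins to actin, and Pdcd2l had log2 fold changes of -0.45, -0.32, -0.25 and -0.47. Their ranges in rats given both drugs overlapped with vehicle. AABR07040629.1, an unnamed gene, had 1.43 to 2.68 CPM in rats given both drugs and 2.10 to 2.68 CPM in vehicle rats apart from 21.6 CPM in vehicle replicate 2. Its log2 fold change was -1.82 with and -0.26 without that library. AABR07019254.2 averaged 3.78 ± 0.858 CPM in rats given both drugs and 2.153 ± 0.557 CPM in vehicle rats (SD, n = 4 each).

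None of the known drug targets passed the test. None of 9 tested serotonin receptor genes was past an unadjusted p of 0.05 in either direction, and 4 had a positive log2 fold change. Their median was -0.02, or 0.25 with 7 positive without vehicle replicate 3. Htr2a, the receptor that psilocin activates and ketanserin blocks, had 31.1, 29.1, 29.9 and 39.7 CPM in rats given both drugs, against 30.6, 34.9, 38.7 and 32.0 CPM in vehicle rats. Its log2 fold change was -0.07, with a 95% interval of -0.40 to 0.27. Htr2c averaged 20.4 ± 3.81 CPM in rats given both drugs and 14.8 ± 5.12 CPM in vehicle rats (SD, n = 4 each), a log2 fold change of 0.46 with an interval of -0.06 to 0.98. Htr1a, the inhibitory receptor that psilocin also binds, averaged 6.47 ± 2.41 CPM in rats given both drugs and 5.70 ± 2.40 CPM in vehicle rats (SD, n = 4 each).

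The other serotonin receptors gave wider intervals. Htr5a had a log2 fold change of 0.42 (-0.56 to 1.39), Htr3a, a ligand-gated channel, of -0.22 (-0.74 to 0.29), and Htr1d of 0.54 (-0.48 to 1.55). Per length, Htr2a had the highest mean of the 9, at 6.94 ± 1.04 FPKM in rats given both drugs and 7.28 ± 0.784 FPKM in vehicle rats (SD, n = 4 each). Of 9 other known ketanserin targets 5 had a positive log2 fold change. The largest log2 fold change of these was that of Drd1, the dopamine D1 receptor, at 6.39 ± 2.10 CPM in rats given both drugs and 4.53 ± 1.48 CPM in vehicle rats (SD, n = 4 each). Adra1b, an alpha-1 adrenergic receptor, averaged 34.2 ± 4.07 CPM in rats given both drugs and 39.2 ± 10.2 CPM in vehicle rats (SD, n = 4 each). Rgs2, which shortens signalling through Gq, averaged 43.9 ± 4.29 CPM in rats given both drugs and 38.0 ± 2.68 CPM in vehicle rats (SD, n = 4 each), and 9 of 13 genes of that pathway had a positive log2 fold change, with a median of 0.02. Without vehicle replicate 2 the pathway had 5 positive genes and a median of -0.03, and without vehicle replicate 3 a median of 0.14.

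Markers of deep cortical layers had a positive log2 fold change in 14 of 15 genes, beside 46.9% of all genes, with a median of 0.20. None was past an unadjusted p of 0.05 in the edgeR fit of all 28 libraries, and 1 was in the fit of these 8 libraries alone. Against the same vehicle rats, 10 of the 15 were positive after psilocybin alone and 6 after ketanserin alone. The groups overlapped as scores per library, at 0.04 to 0.37 in rats given both drugs and -0.21 to 0.27 in vehicle rats. Summed levels were 674.6 to 824.6 CPM in rats given both drugs, inside the 609.5 to 859.5 CPM of vehicle rats. Foxp2, a transcription factor of layer 6 neurons, had 12.6, 10.8, 9.71 and 10.6 CPM in rats given both drugs and 4.60, 11.9, 7.93 and 6.65 CPM in vehicle rats. Vehicle replicate 2 alone was within the range of rats given both drugs. Syt6, a synaptotagmin of deep layer neurons, averaged 20.1 ± 4.19 CPM in rats given both drugs and 15.0 ± 2.22 CPM in vehicle rats (SD, n = 4 each), and Rxfp1, a relaxin receptor, averaged 23.5 ± 4.18 CPM in rats given both drugs and 19.99 ± 2.29 CPM in vehicle rats (SD, n = 4 each). The median ranged from 0.10 without vehicle replicate 4, with 12 genes positive, to 0.39 without vehicle replicate 2, with 13 positive. It was 0.12 and 0.13 without replicates 4 and 1 of the rats given both drugs. Of 12 upper layer markers 5 had a positive log2 fold change, with a median of 0.00 that was 0.06 without vehicle replicate 1 and -0.16 without vehicle replicate 2, and Calb1, a calcium-binding protein, had 0.13. In bulk tissue more cells of a layer and more RNA per cell cannot be told apart.

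Neuropeptide precursor genes leaned the other way, with a negative log2 fold change in 11 of 13. Nts, the precursor of neurotensin, had 0.979, 1.76, 0.607 and 2.23 CPM in rats given both drugs and 1.89, 4.09, 2.48 and 4.53 CPM in vehicle rats, a log2 fold change of -1.21 ± 0.57 (SE). Penk, the enkephalin precursor, averaged 62.0 ± 6.45 CPM in rats given both drugs and 80.2 ± 17.4 CPM in vehicle rats (SD, n = 4 each). The median of the list was -0.13 with and 0.04 without vehicle replicate 2, when 7 of the 13 were positive. Of 13 subunits of the GABA-A receptor 11 had a positive log2 fold change but the median was 0.03, and it was -0.14 with 2 positive without vehicle replicate 2, 0.34 without vehicle replicate 3 and 0.26 without replicate 3 of the rats given both drugs. Gabra5 and Gabrd, both subunits of receptors outside the synapse, had log2 fold changes of 0.19 and -0.26.

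Glutamate receptor and synapse genes had medians close to that of all genes when all 8 libraries were used. The AMPA and kainate receptor genes had a positive log2 fold change in 8 of 14 with a median of 0.03, the NMDA receptor subunits in 2 of 7 with a median of -0.06, and the metabotropic glutamate receptors in 4 of 8 with a median of -0.01. Scaffold genes of the postsynaptic density were positive in 8 of 20 (median -0.01), presynaptic and adhesion genes in 10 of 20 (median 0.00), and neurotrophin and late activity genes in 9 of 17 (median 0.03). The NMDA median was 0.25 with 4 positive without vehicle replicate 3, and 0.21 without replicate 3 of the rats given both drugs, and the metabotropic median was 0.12 with either of these left out. Without vehicle replicate 1 the medians of the scaffold and the presynaptic genes were both 0.08, with 15 and 12 of 20 positive. The neurotrophin and late activity median was -0.02 without replicate 4 of the rats given both drugs. None of these genes was past an unadjusted p of 0.05 in either direction in the edgeR fit of all 28 libraries. In the fit of these 8 libraries alone 1 NMDA receptor subunit was higher at that threshold. With DESeq2 or without a filter on low counts, 1 neurotrophin and late activity gene was.

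Of 20 voltage-gated potassium channel genes 11 were positive (median 0.06), and of 17 circadian clock genes 11 (median 0.06). Endocannabinoid genes were positive in 2 of 11 (median -0.08), chaperones of the endoplasmic reticulum in 3 of 17 (median -0.10), cytosolic heat shock genes in 5 of 13 (median -0.02), and the glucocorticoid receptor and its response genes in 8 of 18 (median -0.03). Without vehicle replicate 2 the medians were -0.07 for potassium channels with 7 positive, -0.0035 for clock genes with 8 positive, 0.04 for heat shock genes with 8 positive, 0.01 for glucocorticoid response genes with 9 positive and -0.01 for chaperones with 8 positive. Without vehicle replicate 3 those of potassium channels and clock genes were 0.19 and 0.15. The clock median was -0.06 without replicate 4 of the rats given both drugs. No gene of these lists was past an unadjusted p of 0.05 in the edgeR fit of all 28 libraries. Without a filter on low counts 1 clock gene and 1 glucocorticoid response gene were higher at that threshold.

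The direction of the housekeeping lists turned with vehicle replicate 2. Of 78 records of cytosolic ribosomal proteins 65 had a negative log2 fold change, with a median of -0.12, yet without vehicle replicate 2 65 were positive and the median was 0.09, and without replicate 4 of the rats given both drugs it was -0.00201 with 38 positive. Of 13 transcripts of the mitochondrial genome 11 had a negative log2 fold change (median -0.08, or 0.03 without that library). Nuclear genes of the respiratory chain gave 65 of 72 negative and a median of -0.13, and without that library 57 positive and a median of 0.06, or -0.02 without replicate 4 of the rats given both drugs. The summed level of the ribosomal records was 9495 to 14410 CPM in rats given both drugs, and 17930 CPM in vehicle replicate 2 beside 10050 to 12720 CPM in the other vehicle rats. Within the ribosomal list, 1 record of Rpl7a had 7.56 to 12.4 CPM in rats given both drugs and 8.12, 11.4, 33 and 55.1 CPM in vehicle rats. Rpl7a and Rpl35a each have more than 1 record, so their reads could have been divided between copies.

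**Figure D4:**
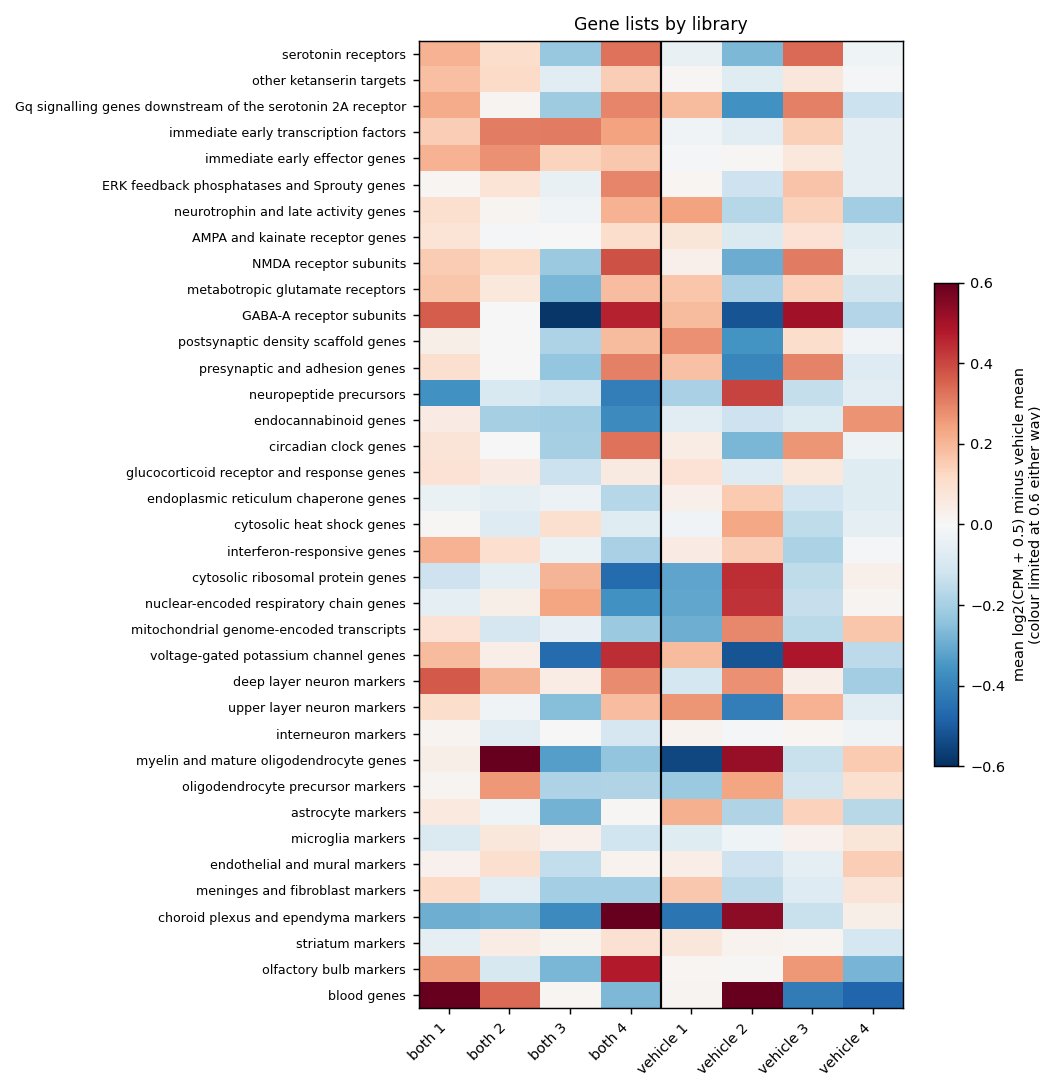
Rows are 37 gene lists and columns the 4 libraries of rats given both drugs (both 1 to 4) and the 4 vehicle libraries, and colour is the mean log2(CPM + 0.5) of the list minus its vehicle mean. Vehicle replicate 2 has a positive ribosomal score of 0.44 and a negative GABA-A score of -0.52, replicate 3 of the rats given both drugs has the same signs at 0.21 and -0.58, and only the 2 immediate early lists are positive in all 4 rats given both drugs with no overlap with vehicle.

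Markers of glia lay within the spread between animals for most genes. Of 14 astrocyte markers 11 had a negative log2 fold change, with a median of -0.05. Without vehicle replicate 1 the median was 0.01 with 6 negative, and without vehicle replicate 2 it was -0.12 with 12 negative. Gjb6, an astrocyte gap junction protein, had 34.5, 32.2, 34.1 and 29.6 CPM in rats given both drugs and 42.5, 38.9, 39.3 and 41.1 CPM in vehicle rats, with no overlap. Cspg4, a marker of oligodendrocyte precursors, averaged 24.6 ± 1.14 CPM in rats given both drugs and 29.8 ± 5.52 CPM in vehicle rats (SD, n = 4 each). Myelin genes varied widely within both groups, with summed levels of 3904 to 9330 CPM in rats given both drugs and 3268 to 8839 CPM in vehicle rats. Of 17 myelin genes 8 had a positive log2 fold change, with a median of -0.02, or 0.28 with vehicle replicate 2 left out and -0.19 with replicate 2 of the rats given both drugs left out.

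Of 13 genes that mark meninges and fibroblasts 10 had a negative log2 fold change, with a median of -0.24 that ranged from -0.28 without vehicle replicate 3 to -0.11 without vehicle replicate 1. Igf2, a growth factor made by meninges, had 102, 83.4, 87.6 and 93.1 CPM in rats given both drugs and 128, 125, 105 and 131 CPM in vehicle rats, with no overlap, and Col3a1, a fibrillar collagen, averaged 39.2 ± 4.51 CPM in rats given both drugs and 52.4 ± 17.0 CPM in vehicle rats (SD, n = 4 each). Summed over the list, levels were 288 to 346 CPM in rats given both drugs and 319 to 437 CPM in vehicle rats. Ttr, the transthyretin of the choroid plexus, had 12.3 CPM in replicate 4 of the rats given both drugs and 0.0652 to 0.367 CPM in the other 3, against 0.203 to 1.52 CPM in vehicle rats. Blood genes summed to 897 to 1954 CPM in rats given both drugs and 984 to 2463 CPM in vehicle rats. Oas1a, an interferon-induced sensor of RNA, averaged 0.522 ± 0.181 CPM in rats given both drugs and 1.2 ± 0.483 CPM in vehicle rats (SD, n = 4 each), while 9 of 18 interferon-responsive genes had a positive log2 fold change. The interferon median was 0.01, or -0.06 without replicate 2 of the rats given both drugs and 0.04 without vehicle replicate 2. Interneuron markers were positive in 3 of 13 (median -0.08), microglia markers in 5 of 12 (median -0.05), endothelial and mural markers in 5 of 12 (median -0.03), striatum markers in 4 of 10 (median -0.08) and oligodendrocyte precursor markers in 4 of 8 (median -0.03). Without vehicle replicate 2 the medians were -0.02 for interneuron markers with 6 positive, 0.01 for microglia markers with 6 positive, 0.07 for striatum markers with 6 positive and 0.05 for oligodendrocyte precursor markers with 5 positive, and the last was -0.19 without replicate 2 of the rats given both drugs. The endothelial and mural median was 0.03 without vehicle replicate 1. Olfactory bulb markers were positive in 3 of 4 tested (median 0.26, or -0.11 without replicate 4 of the rats given both drugs), choroid plexus and ependyma markers in 1 of 3 (median -0.05, or 0.30 without vehicle replicate 2), and blood genes in 6 of 7. The blood median was 0.14, or 0.51 without vehicle replicate 2 and -0.10 without replicate 1 of the rats given both drugs. The part of these cell types in the other results was not tested.

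**Figure D5:**
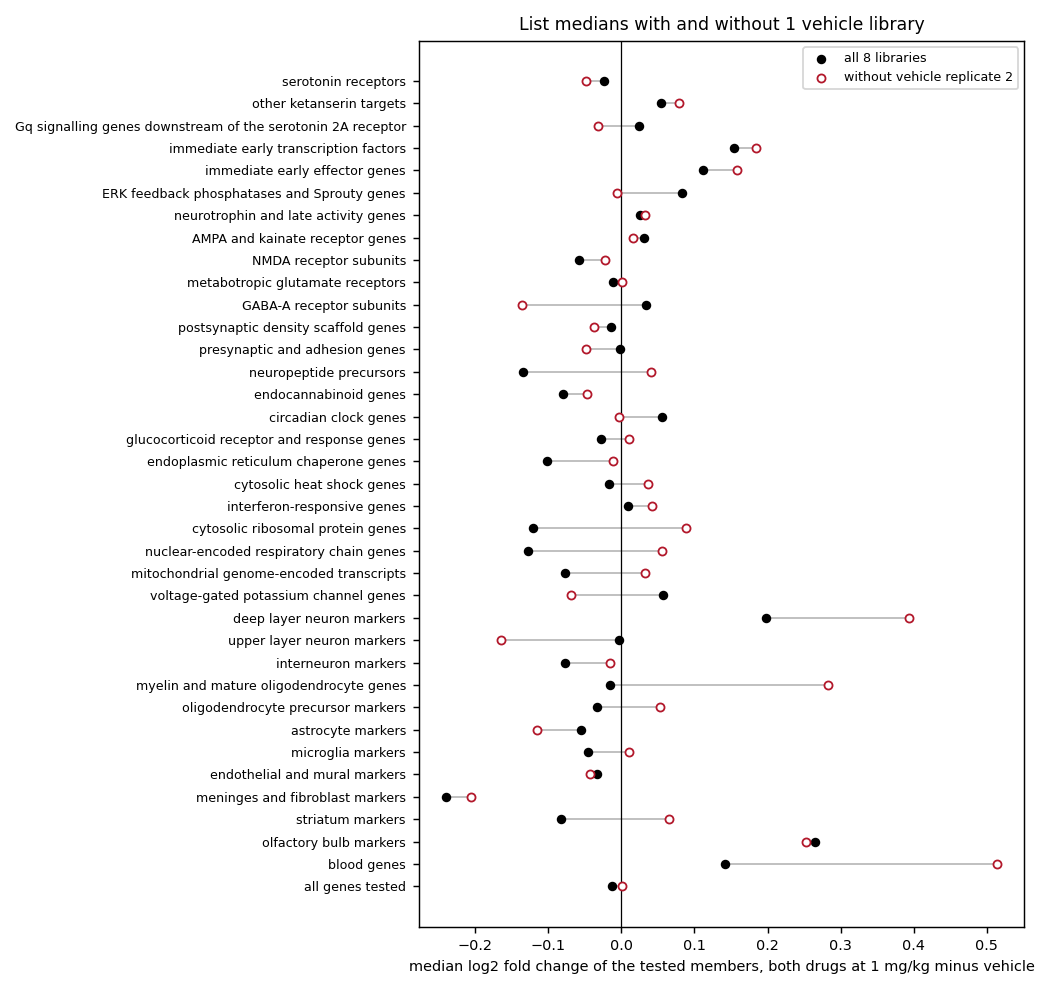
Median log2 fold change (x axis, both drugs at 1 mg/kg minus vehicle) of the tested members of 36 gene lists and of all genes, with all 8 libraries (filled points) and without vehicle replicate 2 (open points). The ribosomal, respiratory, neuropeptide and GABA-A medians change sign, while both immediate early medians and the deep layer median stay positive.

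Rats given both drugs were also set against rats given psilocybin alone at 1 mg/kg, which asks what the added ketanserin went with. No gene passed an adjusted p under 0.05 with edgeR (0 of 17404, 0%), and 718 (4.13%) were past an unadjusted p of 0.05, 324 higher (1.86%) and 394 lower (2.26%). With 1 library left out that count lay between 349, without psilocybin replicate 2, and 1205, without replicate 3 of the rats given both drugs. All 4 libraries of rats given both drugs lay above all 4 of psilocybin alone in 1.62% of genes and below them in 1.73%. C1ql2, a secreted synaptic organiser of the complement C1q family at chr13:36378356-36380302 on rn6, had the lowest p. It had 1.53, 2.67, 2.43 and 2.22 CPM in rats given both drugs, against 1.77, 20.3, 13.3 and 11.1 CPM after psilocybin alone. The groups met only through psilocybin replicate 1, and the log2 fold change was -2.39 with an adjusted p of 0.131 (edgeR). DESeq2 called it at -2.40 with an adjusted p of 0.000304, and edgeR at -2.73 and 4.63e-05 without psilocybin replicate 1. It was lower than in vehicle rats too, which had 4.46, 5.35, 5.14 and 6.17 CPM with no overlap, and than after ketanserin alone, at 3.37 to 5.16 CPM.

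Sdc1, a cell surface proteoglycan, averaged 1.19 ± 0.271 CPM in rats given both drugs and 1.64 to 6.18 CPM over the libraries of psilocybin alone. Shisa8, an auxiliary subunit of AMPA receptors, had 3.85 to 5.16 CPM in rats given both drugs and 7.11 to 16.8 CPM after psilocybin alone, and Frs3, an adaptor of growth factor receptors, had 20.2 to 25.6 CPM in rats given both drugs and 28 to 34.8 CPM after psilocybin alone. The adjusted p of each was 0.894 (edgeR). For Sdc1, Shisa8 and Frs3 no library of rats given both drugs reached the range of psilocybin alone. Il6r, the interleukin-6 receptor, lay at 9.10 to 12.4 CPM in rats given both drugs and 5.77 to 7.33 CPM after psilocybin alone, and Far2, a fatty acyl reductase, at 56.5 to 69.9 CPM in rats given both drugs and 41.8 to 49.8 CPM after psilocybin alone. Ppfibp1, a liprin scaffold, had 64.0 to 84.4 CPM in rats given both drugs and 42.2 to 65.6 CPM after psilocybin alone, with an overlap in 1 library of each. LOC100911575, described above, was also higher than after psilocybin alone, at a log2 fold change of 2.63 with overlapping ranges. Of the immediate early transcription factor genes 14 of 24 were higher than after psilocybin alone, with a median log2 fold change of 0.03.

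Against ketanserin alone at 1 mg/kg, which asks what the added psilocybin went with, edgeR again called 0 of 17404 genes (0%), and the lowest adjusted p was 0.9998. At an unadjusted p under 0.05 there were 508 genes (2.92%), 251 higher (1.44%) and 257 lower (1.48%). With 1 library left out that count lay between 294 and 941, without replicates 1 and 3 of the rats given both drugs. All 4 libraries of rats given both drugs lay above all 4 of ketanserin alone in 1.57% of genes and below them in 1.56%. Tsc22d4, a transcriptional regulator, had 1.16, 0.978, 1.21 and 0.685 CPM in rats given both drugs and 1.46, 4.09, 5.46 and 10.3 CPM after ketanserin alone. Rgs20, a brake on Gi and Gz signalling, had 18.2 to 26.8 CPM in rats given both drugs and 32.9 to 35.4 CPM after ketanserin alone, and Fscn1, an actin bundling protein, had 124 to 147 CPM in rats given both drugs and 150 to 180 CPM after ketanserin alone. For Tsc22d4, Rgs20 and Fscn1 the groups did not overlap. Il17ra, the interleukin-17 receptor, had 27.7 to 42.6 CPM in rats given both drugs and 39.4 to 50.9 CPM after ketanserin alone, with an overlap in 1 library of each.

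Higher than after ketanserin alone were Map7, a microtubule-binding protein, at 47.8 to 74.1 CPM in rats given both drugs and 38.8 to 45.9 CPM after ketanserin alone, and Kdelc1, an enzyme of the endoplasmic reticulum that glucosylates proteins, at 9.25 to 13.3 CPM in rats given both drugs and 6.02 to 9.15 CPM after ketanserin alone. F2rl1, a protease-activated receptor, had 0.799 to 1.90 CPM in rats given both drugs and 0.215 to 0.86 CPM after ketanserin alone. Dcun1d2, described above, was also higher than after ketanserin alone, at a log2 fold change of 4.19. The 17 myelin genes were all higher in rats given both drugs than after ketanserin alone, with a median log2 fold change of 0.34, and 1 of them was past an unadjusted p of 0.05. As scores per library the myelin genes had 0.0356, 0.672, -0.33 and -0.238 in rats given both drugs, against -0.405 to -0.113 after ketanserin alone. Replicate 2 of the rats given both drugs was far above the rest, replicate 1 was also above the range of ketanserin alone, and replicates 3 and 4 lay within it. Of the immediate early transcription factor genes 10 of 24 were higher than after ketanserin alone, with a median of -0.07.

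The rats given 3 mg/kg of each drug share the vehicle libraries with this comparison. Their log2 fold changes against vehicle were 4.25 for LOC100911575, 3.28 for Rmnd5b, 3.89 for Dcun1d2, -0.48 for Tsr2, 0.15 for Dusp6, 1.09 for Arc and 0.91 for Mir132. At 1 mg/kg of each drug the same genes had 3.39, 3.95, 3.32, -0.77, 0.49, 1.19 and 1.17. Replicate 4 of the rats given 3 mg/kg of each drug stood apart from all other libraries of the series. It had 19602 genes at 0 reads, where the next highest library had 16657. Its score on the first principal component was -91.4, where the next lowest was -36.7. The values at 3 mg/kg include that library and are not given without it. Dose was not compared by a test here.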

How the data were processed

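The authors deposited 2 tables, of raw read counts and of FPKM values (reads scaled by gene length and library size), each with 36387 rows per the file headers. The submitters' processing notes name HISAT2 (2.0.5), StringTie (1.3.3b), featureCounts (1.5.0-p3) and the build rn6. Per the labels' protocols, the directional libraries came from poly-A RNA. The 3842 unnamed assembled transcripts stayed in the totals and tests. Counts were filtered with filterByExpr, scaled by TMM and fitted with edgeR 4.0.16 (R 4.3.3) to all 28 libraries in 7 groups, with 21 residual degrees of freedom. The robust quasi-likelihood F test was two-sided, with Benjamini-Hochberg adjustment over 17404 genes, and was tested on simulated data. DESeq2 1.42.0 and other settings were alternatives. FPKM values served only to compare levels between genes.

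Groups came from the labels, while the comparison and the 37 gene lists were chosen with earlier results of these data known. The rule for named genes took those called under any setting, the 10 with the lowest p in each direction at a mean of at least 1 CPM, up to 4 of each list, 4 in each direction against each single drug, Htr1a, Htr2a and Htr2c, and 6 from earlier results. It gave 174 genes, of which the text describes a part. Promoter and microRNA sequences are from RefSeq (GRCr8), matched by symbol, and gene positions are those of the files (rn6).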

Additional observations from a re-analysis of the deposited data

Results flagged for a closer look

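In 8 of 114 groups of 4 libraries checked (40 of single genes and 74 of list scores) the highest or lowest library was separated from the others by more than Dixon's 95% critical value. Chance flags about 1 in 20 groups. In rats given both drugs these were Dcun1d2 in replicate 2 at 1.17 CPM (the others 3.64 to 4.34), Dusp6 in replicate 4 at 36.7 CPM (29 to 30) and Gorasp2 in replicate 1 at 0.49 CPM (13.8 to 20.7). They were also LOC100911575 in replicate 3 at 4.17 CPM (35.1 to 53.5), Rmnd5b in replicate 2 at 12.2 CPM (5.01 to 5.48), and the choroid plexus and ependyma score in replicate 4 at 0.869 (-0.381 to -0.286). In vehicle rats they were AABR07040629.1 in replicate 2 at 21.6 CPM (2.1 to 2.68) and the endocannabinoid score in replicate 4 at 0.267 (-0.123 to -0.0637).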

How the results depend on the processing

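Against vehicle, 0 genes were called under RLE scaling, without a filter, with a mean of at least 5 CPM, without unnamed transcripts, and without replicate 4 of the rats given 3 mg/kg of each drug. The count was 2 in the fit of only the 2 groups compared (Ndufa1 and Rmnd5b), 1 with DESeq2 (LOC100911575), and 0 to 1 when 1 library was left out, the 1 being LOC100911575 without replicate 3 of the rats given both drugs. Against psilocybin alone it was 1 with DESeq2 and 0 to 1 when 1 library was left out (C1ql2, without psilocybin replicate 1). Against ketanserin alone it was 0 under every setting run. At an unadjusted p under 0.05 the 227 genes against vehicle were 349 with DESeq2, 473 without a filter, 125 with a mean of at least 5 CPM and 348 without replicate 4 of the rats given 3 mg/kg of each drug, and the 508 against ketanserin alone were 859 in the fit of those 2 groups. Of 1310 values of the described genes under other settings, 6 changed sign, all with 1 library left out, when Htr1a ranged from -0.0791 to 0.368, Htr2a from -0.179 to 0.00149, Htr5a from -0.0590 to 0.662, Map7 against vehicle from -0.0481 to 0.16 and Ttr from -2.22 to 2.17. The medians of both immediate early lists, the deep layer list and the meninges list kept their sign under every setting. So did those of the endocannabinoid, endoplasmic reticulum chaperone, interneuron and other ketanserin target lists. The values of these nearest to 0 were -0.02, -0.01, -0.02 and 0.002. The cause of these changes was not tested. No paired analysis was possible because the labels number no replicates.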
